A study of Mus musculus with 16 samples.

Results

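The genes described here are the nuclear genes that encode subunits of oxidative phosphorylation, read across the cell types of the mouse thoracic aorta. Members were all features whose symbol began with Nduf followed by a, b, c, s or v and a digit (complex I), with Uqcr (complex III), with Cox4 to Cox8 (complex IV) or with Atp5 (complex V, the ATP synthase). This gave 80 of the 31055 features, of which 37 were placed in complex I, 8 in complex III, 18 in complex IV and 17 in complex V. The complex was read from the symbol alone, so that Ndufa4 and Ndufa4l2 were counted in complex I. The place of each protein in an assembled complex was not checked. The symbol Atp5o stood on a second feature, a read-through transcript that overlaps the gene and held almost no counts, so that the 80 features carried 79 symbols. Subunits whose symbols fall outside these patterns, such as Ndufab1, Cyc1 and the succinate dehydrogenase genes, were read as a separate list.

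Oxidative phosphorylation passes electrons from NADH and succinate through complexes I to IV to oxygen, pumps protons across the inner mitochondrial membrane and lets them return through complex V, which makes ATP. Complexes I, III, IV and V are built from subunits of both genomes. The nuclear genome encodes most of them, while the mitochondrial genome encodes the hydrophobic core, and several subunits of complexes IV and V have isoforms that differ between tissues. Heart, skeletal muscle and brown fat use muscle isoforms such as Cox6a2, Cox7a1 and Cox8b, and Cox4i2 and Ndufa4l2 are known from lung, pericytes and cells at low oxygen.

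Single-cell RNA sequencing was done on cells of the thoracic aorta, from the root to the arch, of male mice on the 129S6/SvEv background, 1 mouse per library. Smad3SmKO mice carried 2 floxed Smad3 alleles and the Smad3+/+ controls none, all carried the Y-linked Myh11-CreER transgene, which is active in smooth muscle after tamoxifen, and all were given tamoxifen from 6 weeks of age. Aortas were taken 10 weeks after deletion (2 Smad3+/+ and 2 Smad3SmKO mice) or 18 weeks after it (5 Smad3+/+ and 7 Smad3SmKO mice). The 10-week libraries were all of batch 4 and digested for 60 min, the 18-week libraries of batches 1 to 3 for 30 min and those of batches 5 and 6 for 60 min, and the conditional tracer Myh11-GFP was carried by both Smad3+/+ and neither Smad3SmKO mouse of 10 weeks and by all mice of batches 5 and 6, so time, tracer, batch and digestion cannot be told apart where they coincide.

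Of 66349 deposited barcodes, 50858 passed the limits on genes, unique molecular identifiers (UMIs) and mitochondrial share, between 631 and 6497 per library, with a median of 4528 to 21884 UMIs per cell. Cells were placed in classes by marker UMIs: 8648 vascular smooth muscle cells (VSMCs, at least 5 UMIs of Myh11 and more than of Dcn), 33954 fibroblasts (the reverse), 1226 endothelial cells (at least 2 UMIs of Pecam1 and Cdh5) and 2946 leukocytes (at least 2 UMIs of Ptprc and Tyrobp). No member was used in that choice. All 8 markers fixed for VSMCs were higher in the VSMC class than in each other class, and all 8 fixed for fibroblasts, endothelium or leukocytes were lower in VSMCs than in the class they mark. These lists include Myh11, Dcn, Pecam1, Cdh5, Ptprc and Tyrobp, whose order was fixed by the choice of cells and checks nothing. The VSMC class was represented in all 16 libraries, by 20 cells in Smad3SmKO 18-week replicate 4 and by up to 1675 in others, whereas the endothelial and leukocyte classes of Smad3SmKO 18-week replicate 7 held 3 and 10 cells and were left out of tests. Levels are given as CPM, the count of a gene scaled to a fixed total of UMIs of the class in a library. Smad3 itself, from 1.97 to 9.54 CPM in VSMCs of the 5 Smad3+/+ and from 4.35 to 19.1 in those of the 7 Smad3SmKO libraries at 18 weeks, did not separate the genotypes. Its UMIs are read near the 3′ end of the transcript and need not lie in the deleted part, so they check no label. In all, 315 barcodes were shared by at least 2 libraries, at most 11 by any pair.

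Members differed in the sequence before their start sites, and 4 of them are shown here. Cox6a1, Ndufa11 and Ndufb7 rose in VSMCs in the comparisons below. Cox8b had 14 UMIs in all VSMCs, and its call in these comparisons carries no weight. Of 79 symbols, 65 had an entry among the RefSeq promoters (GRCm38.p6, 250 bases before to 50 after each start). Both strands were searched for the NRF1 consensus (NRF1 is a factor known for driving respiratory genes), CCGGAAG (ETS factors, among them the NRF2/GABP subunit Gabpa), TGACCTT (estrogen-related receptors), AAGATGGC (YY1) and TATAAA (the TATA box). The NRF1 consensus stood in 15 of the 65 member genes, or 23.1%, and in 5.19% of 27025 genes with an entry. The YY1 letters stood in 10 (15.4% against 3.19%), the ETS letters in 14 (21.5% against 9.93%), the receptor letters in 7 (10.8% against 5.38%) and TATAAA in 7 (10.8% against 15.7%). The 250 bases upstream of the start are written below 5′ to 3′ on the strand of the gene, with matches to the NRF1 consensus and the ETS letters in capitals. A match describes the letters and not a bound site. Ndufc1 and Ndufv3, which also rose in VSMCs in the comparisons below, had neither an NRF1 nor an ETS match. Whether a match goes with a rise was not tested.

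Cox6a1 (chr5:115348959-115349208, minus strand): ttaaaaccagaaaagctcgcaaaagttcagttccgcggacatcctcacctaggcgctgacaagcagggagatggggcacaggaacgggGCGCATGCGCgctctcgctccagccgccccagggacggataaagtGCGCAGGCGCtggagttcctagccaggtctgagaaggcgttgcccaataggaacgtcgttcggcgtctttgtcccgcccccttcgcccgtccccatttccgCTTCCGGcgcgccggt
Ndufa11 (chr17:56717512-56717761, plus strand): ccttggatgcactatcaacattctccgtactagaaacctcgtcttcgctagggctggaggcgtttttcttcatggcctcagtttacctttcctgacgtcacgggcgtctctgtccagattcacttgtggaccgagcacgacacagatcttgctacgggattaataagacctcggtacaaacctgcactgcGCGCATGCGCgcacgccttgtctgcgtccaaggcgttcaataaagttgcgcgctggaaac
Ndufb7 (chr8:83566508-83566757, plus strand): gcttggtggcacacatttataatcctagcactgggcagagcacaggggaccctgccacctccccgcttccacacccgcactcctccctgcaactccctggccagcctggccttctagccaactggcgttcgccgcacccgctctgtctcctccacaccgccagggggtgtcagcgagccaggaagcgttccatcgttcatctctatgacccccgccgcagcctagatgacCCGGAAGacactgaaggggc
Cox8b (chr7:140900447-140900696, minus strand): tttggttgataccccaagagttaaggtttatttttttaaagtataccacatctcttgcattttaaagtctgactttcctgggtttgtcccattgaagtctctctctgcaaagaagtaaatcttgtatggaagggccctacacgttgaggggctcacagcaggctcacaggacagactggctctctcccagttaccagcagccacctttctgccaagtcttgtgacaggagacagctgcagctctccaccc

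Of all UMIs of a class, the members took their largest share in VSMCs and their smallest in leukocytes. The share was 2.68% ± 0.318 in VSMCs (SD, n = 16 libraries), 2.23% ± 0.248 in endothelium (n = 15), 1.94% ± 0.174 in fibroblasts (n = 16) and 1.70% ± 0.160 in leukocytes (n = 15). Within a library the VSMC share was above that of fibroblasts in 16 of 16 libraries, by a factor of 1.38 ± 0.124, above that of endothelium in 15 of 15, by 1.23 ± 0.125, and above that of leukocytes in 15 of 15, by 1.60 ± 0.135. Endothelium was above fibroblasts in 15 of 15, and fibroblasts above leukocytes in 15 of 15. The ranges of neighbouring classes overlapped between libraries (2.19% to 3.24% in VSMCs, 1.79% to 2.59% in endothelium), so the order held within libraries and not for every pair of libraries. As a share sums the members, no test was made of it. A droplet library counts molecules, and more transcripts per cell of these genes and fewer of all others cannot be told apart in such a share.

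**Figure D1:**
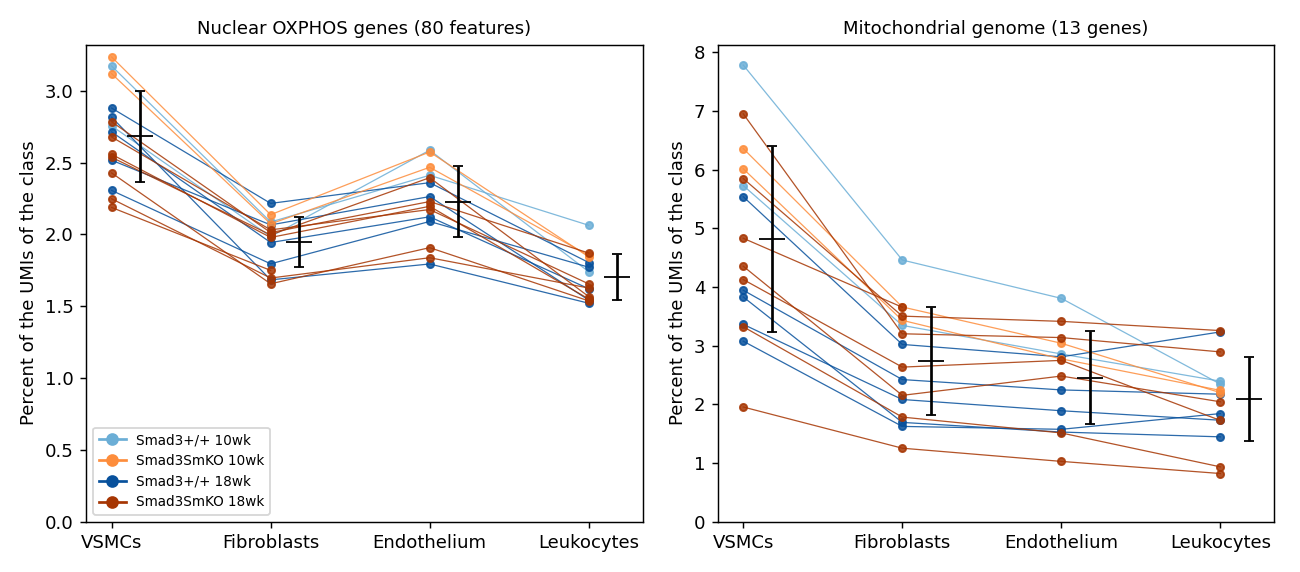
Percent of the UMIs of a class (vertical axes, from 0) that came from the 80 members (left) and from the 13 genes of the mitochondrial genome (right) in the 4 cell classes, with 1 point per library coloured by group, lines joining the classes of a library, and black bars for mean and SD. The VSMC point is the highest of each line on the left, at 2.19% to 3.24%.

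Each complex was highest in VSMCs by mean. Complex I took 0.975% ± 0.111 of UMIs in VSMCs against 0.697% ± 0.0636 in fibroblasts and 0.523% ± 0.0435 in leukocytes, complex IV 0.712% ± 0.103 against 0.496% ± 0.0504 and 0.487% ± 0.0614, complex V 0.700% ± 0.0633 against 0.547% ± 0.0515 and 0.506% ± 0.0400, and complex III 0.298% ± 0.0523 against 0.205% ± 0.0283 and 0.189% ± 0.0287 (n = 16, 16 and 15). The 13 transcripts of the mitochondrial genome, which encode the remaining core subunits, took 4.81% ± 1.58 in VSMCs, 2.74% ± 0.921 in fibroblasts, 2.46% ± 0.800 in endothelium and 2.08% ± 0.717 in leukocytes. In contrast to the nuclear members, they were higher in endothelium than in fibroblasts in 2 of 15 libraries. The cytosolic ribosomal protein genes, another large set of abundant short transcripts, took their smallest share in VSMCs, with 10.9% ± 1.38 there, 13.6% ± 1.58 in fibroblasts, 14.6% ± 2.99 in leukocytes and 15.1% ± 2.12 in endothelium. By mean level, 61 of the 80 members were highest in VSMCs, 12 in endothelium, 5 in fibroblasts and 2 in leukocytes, and 20 of the 61 were highest in VSMCs in each of the 15 libraries that held all 4 classes.

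Most single members were higher in VSMCs than in fibroblasts. In a fit of all 4 classes with the library as a block, 77 members could be tested and 65 rose and 4 fell (edgeR's quasi-likelihood test with Benjamini-Hochberg adjustment over 11106 genes, of which 68.2% were called, 32.0% higher and 36.2% lower). The median log2 fold change was 0.49 over the members and -0.04 over all genes tested. All 8 members of complex III rose, by 0.38 to 0.82, as did 33 of 37 of complex I, 14 of 16 of complex V and 10 of 16 of complex IV. Cox7b2, Cox8c and the read-through Atp5o, with 99, 2 and 2 UMIs in the 4 classes, were too low to be tested.

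The 3 largest rises over fibroblasts were of 2 accessory subunits of complex I and of the form of subunit VIa that most tissues use. Ndufb7 lay between 203 and 380 CPM (median 279) in VSMCs and between 112 and 207.8 (median 151) in fibroblasts, and rose by 0.92 ± 0.06 (log2, SE, adjusted p = 8.71e-20). Ndufc1 lay between 210 and 618 (median 373) and between 141 and 304 (median 207), and rose by 0.89 ± 0.06 (adjusted p = 3.96e-18). Cox6a1 lay between 278 and 458 (median 384) and between 161 and 278 (median 207.8), and rose by 0.88 ± 0.07 (adjusted p = 1.23e-16). The ranges of all 3 overlapped between libraries, for Cox6a1 at their edges only, while the fit compares the classes within a library. Among members with a defined role, the catalytic beta subunit of ATP synthase, Atp5b, rose by 0.61 ± 0.07 (adjusted p = 6.93e-11) and Cox4i1, the common form of subunit IV, by 0.61 ± 0.04 (adjusted p = 2.36e-17).

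The 4 members that were lower in VSMCs than in fibroblasts were tissue isoforms of complex IV and a paralog. Cox8b (muscle form of subunit VIII) was at 0 in VSMCs of 10 of 16 libraries and at most 0.676 CPM, against 0.647 to 11.8 (median 5.09) in fibroblasts. Cox6a2 (muscle form of subunit VIa) was at 0 in VSMCs of 11 libraries and at most 0.945 CPM, against 0 to 3.96 (median 0.789) in fibroblasts. With 14 and 17 UMIs in all VSMCs, these 2 members passed the filter on low counts through the other classes and had to come out lower, so that their calls carry no weight and no fitted fold change is given. Cox6a2 could not be tested at all once cells with heart muscle transcripts were left out, nor without Smad3+/+ 10-week replicate 2, Smad3+/+ 18-week replicates 3 or 4 or Smad3SmKO 18-week replicate 5. Ndufa4l2, a paralog of Ndufa4 known to be induced by low oxygen, lay between 1.83 and 184 CPM (median 20.4) in VSMCs and between 36.2 and 191 (median 120) in fibroblasts, and fell by 2.61 ± 0.42 (log2, adjusted p = 5.43e-07). Cox6b2 (testis form of subunit VIb) had 210 UMIs in all VSMCs, against 4555 in fibroblasts. It also passed the filter through other classes, so that its call has the same limit as those of Cox8b and Cox6a2. Of their common partners, Cox8a rose by 0.67 ± 0.06 (adjusted p = 4.74e-14), as did Cox6a1 above. The VSMC markers summed to 520 to 12010 CPM in the fibroblast class, against 37416 to 76573 in VSMCs, and their part in these differences was not tested.

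Against endothelium, 65 members were higher and 8 lower in VSMCs (34.5% and 31.7% of all genes, 66.2% in all). The median was 0.52 over members and 0.02 over all genes. The 3 largest rises were of Cox4i2 (1.40 ± 0.27, adjusted p = 9.84e-06), which lay between 35.8 and 124 CPM (median 64.1) in VSMCs and between 3.00 and 68.8 (median 30.1) in endothelium, of the complex I subunit Ndufa11 (1.29 ± 0.07, adjusted p = 2.40e-21), between 282 and 672 (median 422) against 124 and 330 (median 244), and of Ndufv3, a flavoprotein-arm subunit of complex I (1.12 ± 0.08, adjusted p = 1.10e-17), between 184 and 437 (median 312) against 123 and 227 (median 165). The 8 lower members included Cox8b (0 to 17.9 CPM in endothelium, median 6.35) and Cox6a2 (0 to 10.7, median 5.98), with the limit given above. Cox6b2 and Cox7a1, with 210 and 242 UMIs in all VSMCs, passed the filter through other classes and had the same limit. The others were Ndufa4l2 (-1.21 ± 0.49, adjusted p = 0.0287), Ndufa8 (-0.42), Ndufc2 (-0.20) and Cox7a2l (-0.18). The call of Ndufa4l2 was lost with DESeq2 (adjusted p = 0.140), without the filter on low counts (0.0625) and without Smad3+/+ 10-week replicate 2 (0.0999), Smad3SmKO 10-week replicates 1 and 2 (0.0597 and 0.0765) or Smad3+/+ 18-week replicates 4 and 5 (0.0880 and 0.0627).

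Cox4i2 and Ndufa4l2 in the endothelial class were carried by few of its cells. With a choice made after seeing these levels, the 105 endothelial-class cells (8.56%) that held at least 2 UMIs of the pericyte markers other than Rgs5 held 70.3% of the class's Cox4i2 UMIs, at 179 against 12.1 CPM in the rest, and 86.1% of its Ndufa4l2 UMIs, at 370 against 9.58. Each gene was higher in these cells in 9 of the 10 libraries that held enough of them. The pericyte markers summed to 95 to 2112 CPM in the endothelial class between libraries and to 299 to 1656 in VSMCs.

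Against leukocytes, 66 members were higher and 6 lower in VSMCs (43.4% and 36.3% of all genes, 79.7% in all), with a median of 0.50 over members and 0.11 over all genes. Cox4i2 was at 0 in leukocytes of 4 of 15 libraries and at most 3.16 CPM. With 37 UMIs in all leukocytes, it passed the filter through the other classes and had to come out higher in VSMCs. No fitted fold change of it is given. Ndufa4l2, with 44 UMIs in leukocytes and at most 11.7 CPM there, also passed the filter through other classes. It too had to come out higher in VSMCs, so its call carries no weight and no fitted fold change is given. The call was lost when cells that met the thresholds of 2 classes were kept (adjusted p = 0.0748). Ndufa11 rose by 1.54 ± 0.07 (adjusted p = 3.40e-25), from 113 to 212 CPM in leukocytes. The 6 lower members were all of complex IV. Among them, Cox6a2 (0 to 17.6 CPM in leukocytes, median 2.21), Cox8b (0 to 13.3, median 0.678), Cox7a1 and Cox6b2 had the limit given above for low counts in VSMCs. The others were Cox5a (-0.24) and Cox7a2l (-0.16), the last of which joins complexes III and IV in supercomplexes.

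**Figure D2:**
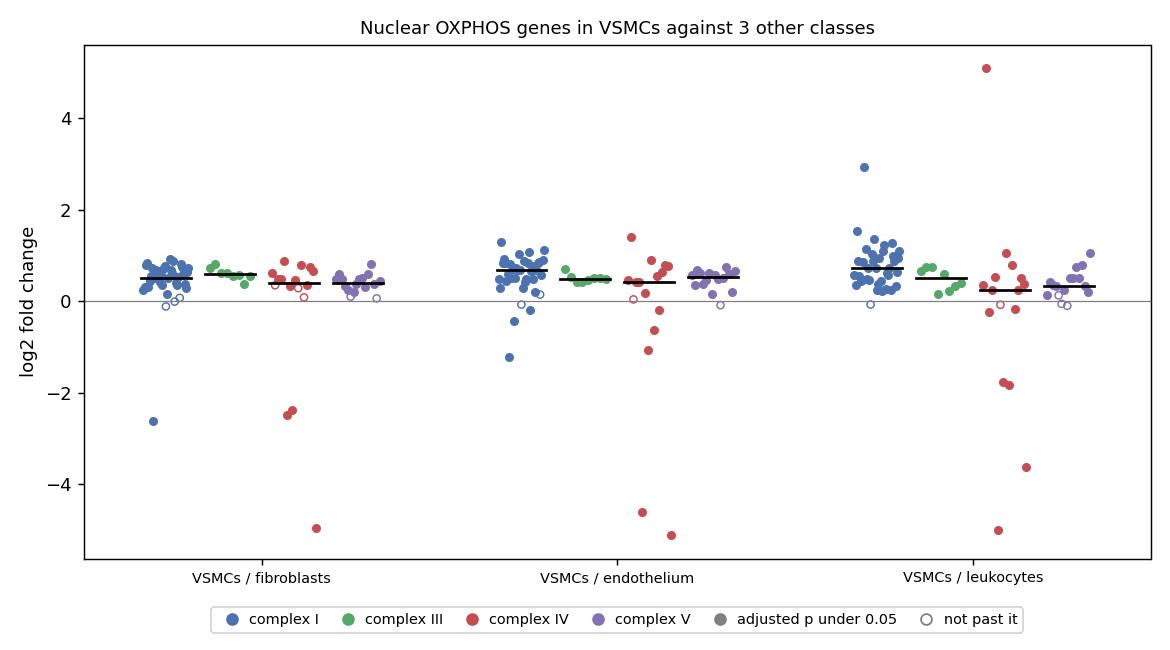
Log2 fold change (vertical axis) of each of the 77 tested members in VSMCs against fibroblasts, endothelium and leukocytes, 1 point per member, grouped and coloured by complex, with black bars for the median, filled points past an adjusted p of 0.05 and open points not past it. Most points lie above 0, with medians over all members of 0.49, 0.52 and 0.50, and the points far below 0 are isoforms of complex IV, among them Cox8b and Cox6a2 with almost no UMIs in VSMCs, and Ndufa4l2.

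The isoforms of complex IV and Ndufa4l2 were then read as shares of their families. In the pair of subunit IV, Cox4i2 made up 6.59% ± 2.63 of UMIs in VSMCs, 7.40% ± 2.13 in fibroblasts, 3.09% ± 2.23 in endothelium and 0.191% ± 0.158 in leukocytes (n = 16, 16, 15 and 15). Ndufa4l2 made up 4.47% ± 6.52 of the pair with Ndufa4 in VSMCs, 18.1% ± 4.24 in fibroblasts, 7.38% ± 4.55 in endothelium and 0.594% ± 0.717 in leukocytes. VSMCs and fibroblasts did not differ in Cox4i2 beyond their spread (log2 0.35 ± 0.20, adjusted p = 0.110). Cox7a2, the common form of subunit VIIa, took 71.6% ± 5.71 of its family in VSMCs and 60.6% ± 8.53, 60.4% ± 10.3 and 56.2% ± 7.98 in fibroblasts, endothelium and leukocytes, with Cox7a2l making up nearly all of the rest. The muscle forms were rare in all 4 classes (Cox6a2 0.0453% in VSMCs to 2.23% in leukocytes, Cox8b 0.00983% in VSMCs to 0.810% in endothelium, Cox7a1 0.360% in VSMCs to 1.78% in leukocytes). The testis forms Cox7b2 and Cox8c had no UMI in endothelium or leukocytes. Among the genes for subunit c of ATP synthase, which encode the same mature protein, Atp5g1 had 394 CPM ± 66.7 in VSMCs, Atp5g2 434 ± 61.2 and Atp5g3 244 ± 43.3, and Atp5g2 was higher in endothelium (474 ± 94.3).

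The muscle forms were also read in cells with heart muscle transcripts. In 116 cells with at least 3 UMIs of Myh6, Myl3 and Tnni3 (1470637 UMIs, 16 of the cells in the VSMC class), Cox6a2 made up 75.1% of the Cox6a UMIs (95% exact binomial interval 73.2% to 77.0%, covering counting error only), Cox8b 19.3% of Cox8 and Cox7a1 12.3% of Cox7a, and the members took 4.49% of UMIs. The 116 cells also had Dcn at 4469 CPM, above Myh6 at 1886, so these are not levels of heart muscle alone. Any Cox6a2 was seen in 66 of them and any Cox8b in 53. In the fibroblast class, 38 such cells held 49.4% of the Cox6a2 UMIs, at 353 against 0.594 CPM in the rest, but only 5.14% of the Cox8b UMIs. Of these 190 Cox6a2 UMIs, 123 lay in 2 cells, 17 of the 38 cells held any, and the level without those 2 was 133 CPM. Fibroblast-class cells with at least 2 UMIs of the adipocyte list (97 cells) had Cox8b at 63.5 CPM against 4.51 in the rest (higher in 6 of the 9 libraries with enough of them) and held 6.16% of its UMIs, so that neither set carried most of the fibroblast Cox8b. In leukocytes, 7 cells with heart transcripts held 4.55% of the Cox6a2 UMIs, and the rest had 5.07 CPM. These sets were chosen after the levels were seen.

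**Figure D3:**
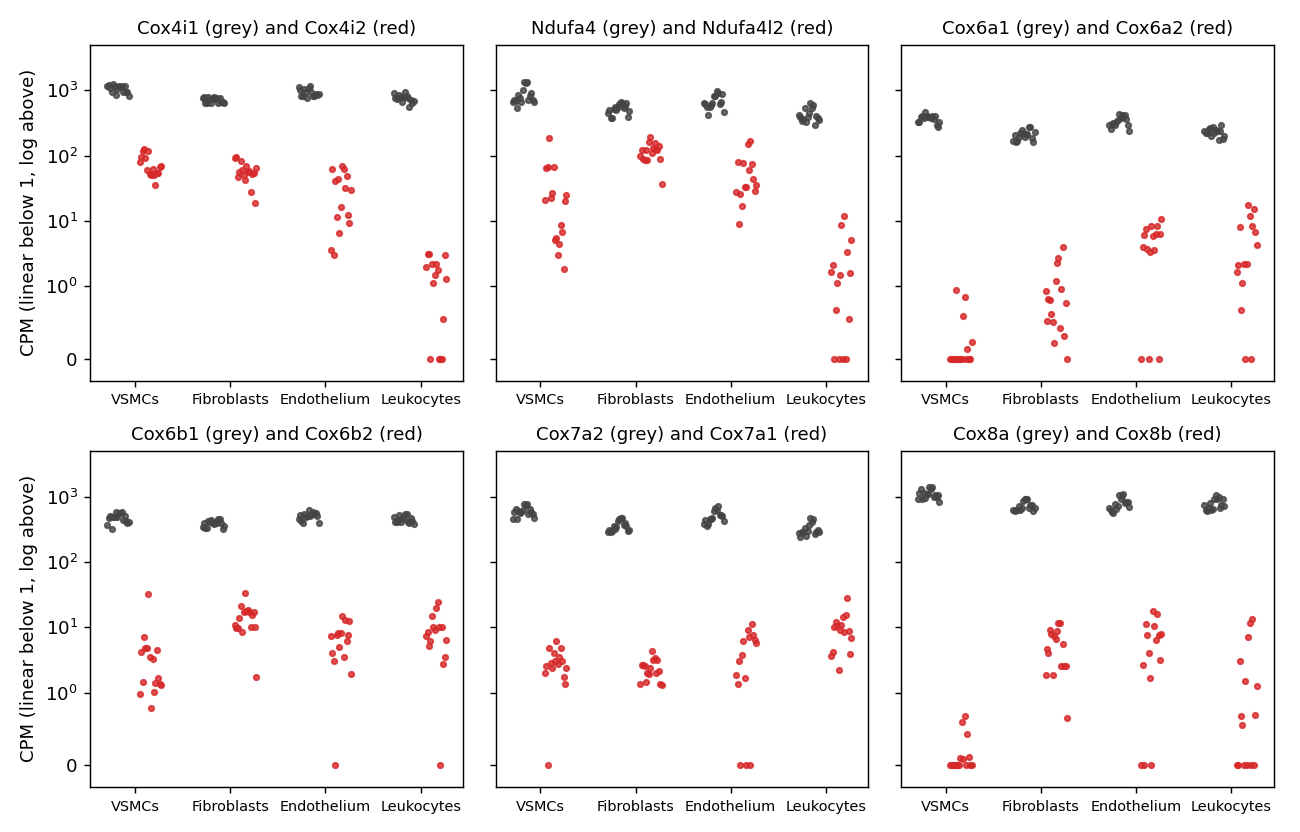
CPM (vertical axis, linear below 1 and log above) of 6 pairs of a common form (grey) and its isoform or paralog (red) in the 4 cell classes, 1 point per library. Red points lie below grey ones in every class, Cox4i2 falls to at most 3.16 CPM in leukocytes, and Cox6a2 and Cox8b are at 0 in VSMCs of 11 and 10 of 16 libraries.

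Other genes of mitochondrial energy metabolism followed the members in part. Of all genes tested, 32.0%, 34.5% and 43.4% were called higher in VSMCs than in fibroblasts, endothelium and leukocytes, and 36.2%, 31.7% and 36.3% lower. All 13 mitochondrial transcripts were higher in VSMCs than in fibroblasts, endothelium and leukocytes (medians 0.88, 1.23 and 1.38). Of the 21 tested genes of the tricarboxylic acid cycle and pyruvate dehydrogenase, 20, 18 and 15 were higher and 0, 0 and 1 lower (medians 0.47, 0.59 and 0.51). Of the 7 other nuclear subunits, 6, 5 and 4 were higher, with Cyc1, cytochrome c1 of complex III, at 0.62, 0.53 and 0.59. Of 40 assembly factors, 18, 25 and 24 were higher and 3, 4 and 4 lower, with Higd1a at 1.12, 1.93 and 1.77 and the copper chaperone Cox17 at 1.10 and 0.35 against fibroblasts and endothelium. Slc25a4, the muscle form of the ADP/ATP carrier, rose by 0.76, 1.27 and 2.79, while the uncoupling protein Ucp2 fell by 3.06, 3.43 and 5.47 on the log2 scale, and in all 9, 11 and 9 of 13 genes of its list rose and 1, 1 and 2 fell. Glycolysis genes were also higher over fibroblasts and endothelium (13 and 12 of 16, with 2 lower in each). Over leukocytes they split (8 higher, 7 lower), near the shares over all genes. Ldhb rose by 1.26, 3.28 and 3.53 and Ldha fell by 0.27, 0.42 and 0.36.

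The regulators of these genes did not move as a group. Of 12 tested, 4, 3 and 1 were higher and 3, 5 and 5 lower in VSMCs against fibroblasts, endothelium and leukocytes. Over all genes, 32.0%, 34.5% and 43.4% were higher and 36.2%, 31.7% and 36.3% lower. The coactivator Ppargc1b rose by 3.08 over fibroblasts (adjusted p = 6.82e-13) and by 1.77 over endothelium (adjusted p = 0.00284), from 7.37 CPM ± 5.14 in VSMCs and 0.700 ± 0.311 in fibroblasts, and did not differ from leukocytes (0.01, adjusted p = 0.972). Its relative Ppargc1a, at 6.01 ± 3.92 in VSMCs and 5.15 ± 4.73 in fibroblasts, was too low to be tested. Tfb2m, a factor of mitochondrial transcription, rose by 0.30, 0.75 and 1.28, whereas Gabpa fell by 0.40, 0.53 and 0.49 and Pprc1 by 0.65, 0.74 and 0.83. Ribosomal protein genes were mostly lower in VSMCs (56, 47 and 69 of 79), as were the genes of dissociation stress (12, 12 and 16 of 20), and the part of stress in the class differences was not tested.

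Within VSMCs, the members were compared between cells with more Notch3 and Enpep, which the study places in the root and proximal ascending aorta, and cells with more Ptprz1 and Tes, which it places distally. In 11 libraries with at least 20 cells of each, 71 members could be tested, and 34 were higher and 1 lower in Notch3/Enpep VSMCs (edgeR as above, with 10.2% of 6746 genes called higher, 11.0% lower and 21.2% in all). The median was 0.17 over members and -0.01 over all genes. Higher were 6 of 8 members of complex III, 8 of 12 of complex IV, 9 of 15 of complex V and 11 of 36 of complex I. The members' share was higher in Notch3/Enpep cells in 11 of 11 libraries (2.98% ± 0.437 against 2.69% ± 0.375).

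Cox4i2 separated the 2 kinds of VSMC without overlap, at 92.2 to 207.8 CPM (143 ± 38.1) against 26.2 to 63.9 (47.1 ± 11.0), a rise of 1.60 ± 0.13 (adjusted p = 4.74e-10). Cox8a, the common form of subunit VIII, rose by 0.56 ± 0.06 (adjusted p = 1.28e-09) and Atp5b by 0.50 ± 0.06 (adjusted p = 1.11e-07, 502 CPM ± 166 against 362 ± 127.6), each higher in 11 of 11 libraries. Uqcrc2, a core protein of complex III, rose by 0.39 ± 0.08 (adjusted p = 0.000523). The single member that fell, Ndufv3, did so by 0.37 ± 0.07 (adjusted p = 6.77e-05) and was lower in 11 of 11 libraries (256 against 342 CPM). Ndufa4l2 was higher in 11 of 11 libraries, at 5.21 to 178 CPM against 0 to 3.66, without overlap, but did not pass the filter on low counts. It was therefore not tested.

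The mitochondrial transcripts went the other way, with 9 of 13 lower and none higher in Notch3/Enpep VSMCs (median -0.24), and a share of 4.27% ± 1.49 against 4.91% ± 1.42 that was higher in 2 of 11 libraries. The stress list moved with the members, as 16 of its 20 genes were higher (median 1.10), and its part in the result was not tested. With at least 50 cells of each kind, 2 libraries were left and 1 member was called. Of the VSMCs placed in either kind, Notch3/Enpep cells made up 57.2% ± 20.4 at 30 min of digestion (n = 7), 12.6% ± 5.22 at 60 min and 18 weeks (n = 5), and 5.04% ± 2.88 at 10 weeks (n = 4).

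**Figure D4:**
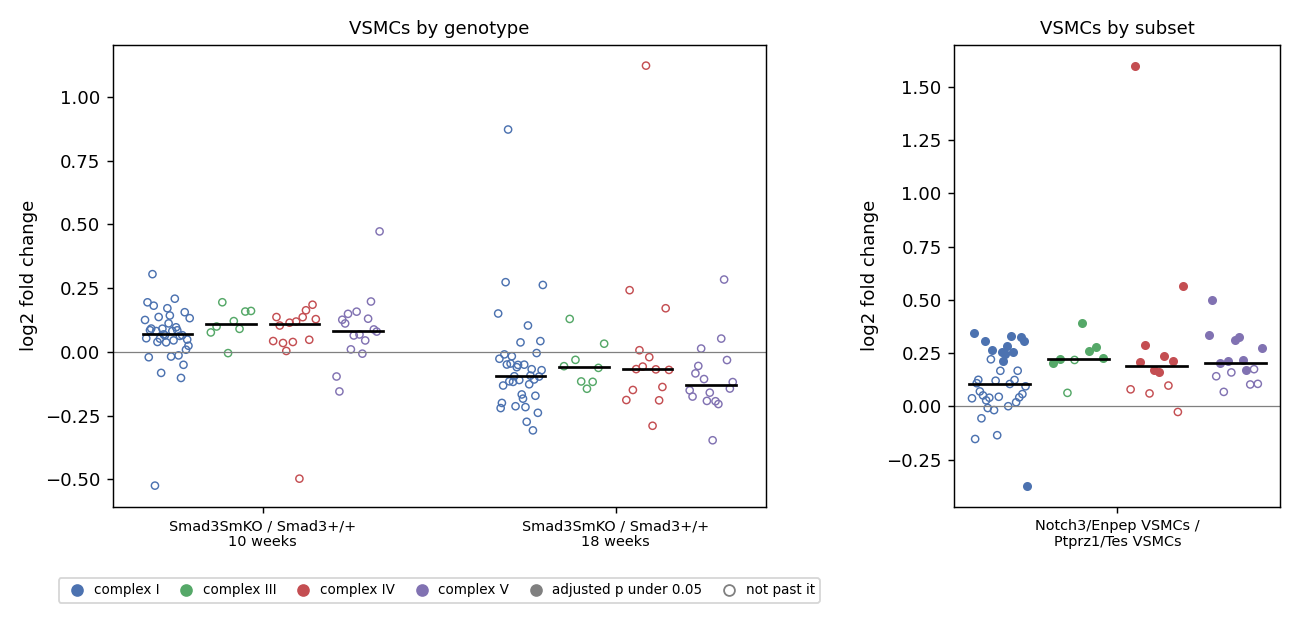
Log2 fold change (vertical axes, on different scales) of each tested member in VSMCs, for Smad3SmKO against Smad3+/+ at 10 and 18 weeks (left, 75 members) and for Notch3/Enpep against Ptprz1/Tes cells (right, 71 members), coloured by complex, with black bars for the median, filled points past an adjusted p of 0.05 and open points not past it. No point on the left is filled, and 34 above 0 and 1 below it are filled on the right.

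The design's main question was what loss of Smad3 in VSMCs did, and for these genes no change passed the test at either time. In VSMCs 75 members could be tested, and 0 were called at 10 weeks (0 of 11711 genes, 0.0%), 0 at 18 weeks (4 genes or 0.0342%, with 0.0171% higher and 0.0171% lower) and 0 for the difference between the times (1 gene, 0.00854%). DESeq2 also called 0 members in each. In simulated counts, edgeR recovered 50% of log2 changes of 1 and 76.8% of log2 changes of 2 between genotypes in VSMCs at 18 weeks. The changed genes were drawn from all genes tested and no batch differences were simulated, so these are not rates for the members. The 10-week contrast was not simulated. Changes could be missed at either time. At an unadjusted p under 0.05, edgeR had 0, 2 and 0 members. At 10 weeks 63 of 75 members lay above 0 in Smad3SmKO (median 0.08, against -0.01 over all genes), and at 18 weeks 16 of 75 did (median -0.08, against -0.01). Both Smad3+/+ mice and neither Smad3SmKO mouse of 10 weeks carried the tracer, so that genotype and tracer cannot be told apart there in any class. The 10-week median rests on few mice, as it was -0.12 without Smad3+/+ replicate 1. The 18-week median was 0.13 in Ptprz1/Tes VSMCs alone.

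In shares, the members took 2.76% and 3.17% in the 2 Smad3+/+ and 3.12% and 3.24% in the 2 Smad3SmKO libraries at 10 weeks, and 1 Smad3+/+ value lay between those of Smad3SmKO. At 18 weeks the range was 2.31% to 2.88% in Smad3+/+ and 2.19% to 2.78% in Smad3SmKO, and the groups overlapped. Ndufs3, a core subunit of complex I, had the smallest p at 18 weeks. It had 187.3, 168, 153, 150 and 154 CPM in the 5 Smad3+/+ libraries and between 107 and 169 (median 134) in the 7 Smad3SmKO libraries, a log2 difference of -0.31 ± 0.14 (adjusted p = 1.00). Atp5g3 followed with -0.35 ± 0.16 and Ndufb9, an accessory subunit of complex I, with -0.27 ± 0.13 (adjusted p = 1.00 for both). The largest differences, of Cox6b2 (1.12 ± 0.74) and Ndufa4l2 (0.87 ± 0.68), had the widest errors. On the log2(CPM + 1) scale, Ndufs3 was lower in Smad3SmKO in each of the 4 batches of 18 weeks that held both genotypes (-0.18, -0.38, -0.64 and -0.18), as was Atp5g3 (-0.12, -0.51, -0.40 and -0.37), whereas Ndufb9 was higher in batch 1 (0.11) and lower in the others. These genes were picked by their p in the same libraries, so the batches give no separate support. Batches 2 and 3 held 1 mouse of each genotype. In Ptprz1/Tes VSMCs alone the difference of Ndufs3 was 0.01.

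At 10 weeks the 3 smallest p belonged to Atp5s (0.47 ± 0.29), Ndufa3 (0.30 ± 0.27) and Cox7a1 (-0.50 ± 0.52), a muscle form whose 2 Smad3+/+ values were 3.03 and 6.14 CPM and whose Smad3SmKO values were 2.78 and 3.55. For the difference between the times they belonged to Ndufs3 (-0.37 ± 0.24), Ndufa11 (-0.41 ± 0.27) and Atp5g3 (-0.41 ± 0.28). All 6 had an adjusted p of 1.00. None of the lists of other energy genes had a called member in either genotype contrast in VSMCs.

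The 3 classes that the Cre does not target gave the same count. Fibroblasts (77 members tested), endothelium (72) and leukocytes (74) had 0 called members in all 3 contrasts, with 0.0% of genes called in each. At an unadjusted p under 0.05 there were 0 members in fibroblasts in each contrast, 1 in endothelium in each, and 0, 0 and 1 in leukocytes, and DESeq2 called 0 in each. The medians lay between -0.08 and 0.09. In fibroblasts the member of smallest p at 18 weeks was Cox4i2 (-0.50, adjusted p = 1.00), which was lower in batches 1, 3 and 6 and higher in batch 2. In endothelium it was Cox7a2l at 18 weeks (0.44) and Ndufs6 at 10 weeks (-0.90), and in leukocytes Cox6a2 at 18 weeks (-1.53) and Cox6b2 at 10 weeks (-1.63), each with an adjusted p of 1.00.

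Digestion time was compared next, since it differed between batches. Among the 12 libraries of 18 weeks, 60 min of digestion went with 2 higher and 2 lower members of 74 tested in VSMCs (1.61% and 1.37% of 10074 genes, 2.98% in all) and with 1 higher of 77 in fibroblasts (1.01% of 14000, with 0.507% lower and 1.52% in all). All 5 libraries at 60 min and none of the 7 at 30 min came from mice with the Myh11-GFP tracer, and digestion, tracer and batch cannot be told apart here. Ndufa3, a small accessory subunit of complex I, had a mean of 119, 124 and 171 CPM in VSMCs of batches 1, 2 and 3 (30 min) and 197 and 313 in batches 5 and 6 (60 min). It rose by 1.14 ± 0.21 (adjusted p = 0.00831) and in fibroblasts by 1.18 ± 0.21 (adjusted p = 0.0185). DESeq2 called 12 members higher in fibroblasts, a count given without the share of all genes that it called. The fibroblast call of Ndufa3 was lost with limma-voom (0.0697). It was also lost without Smad3+/+ 18-week replicate 2, 3 or 5 (0.0611, 0.0527 and 0.0580) or Smad3SmKO 18-week replicate 1 (0.0504). Its VSMC value in the 4 libraries of 10 weeks, which were also digested for 60 min, was 346 by mean.

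Ndufa1, another small subunit of complex I, rose by 0.65 ± 0.17 in VSMCs (adjusted p = 0.0422), and Cox4i2 fell by 0.69 ± 0.18 (adjusted p = 0.0432) and Atp5b by 0.59 ± 0.15 (adjusted p = 0.0441). These 3 stood near the threshold, and leaving out 1 library ended the call of Ndufa1 for 7, of Cox4i2 for 9 and of Atp5b for 9 of the 12 libraries. Cox4i2 and Atp5b, the members that fell, were also among the 3 with the largest rise in Notch3/Enpep VSMCs, whose share was lower at 60 min. The part of that share in these differences was not tested. In Ptprz1/Tes VSMCs alone no member was called. Cox4i2 was at -0.41 there (adjusted p = 0.466), Atp5b at -0.40 (0.408), Ndufa3 at 1.29 (0.149) and Ndufa1 at 0.83 (0.0765), each in its former direction. In Smad3SmKO libraries alone none was called in either class.

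The difference under digestion varied with transcript length, in bins of which those under 500 nt, from 1000 to 2000 nt and from 2000 nt up held fewer than 20 members each. Of the members shorter than 500 nt, 10 of 11 lay above 0 in VSMCs (median 0.24) and 11 of 13 in fibroblasts (0.31), and of those of at least 2000 nt, 1 of 5 (-0.27) and 2 of 5 (-0.02). Between 500 and 1000 nt the medians were 0.07 and 0.19, and between 1000 and 2000 nt -0.11 and 0.06. All genes tested showed the same order, with medians of 0.24 and 0.35 under 500 nt and -0.04 and -0.03 from 2000 nt up. Spearman's rho between length and log2 fold change was -0.50 over 74 members in VSMCs and -0.46 over 77 in fibroblasts, and -0.14 and -0.10 over all genes, a description across genes of the same libraries and not over independent samples. The members' median length was 737 nt and that of all genes tested in VSMCs 2677 nt.

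**Figure D5:**
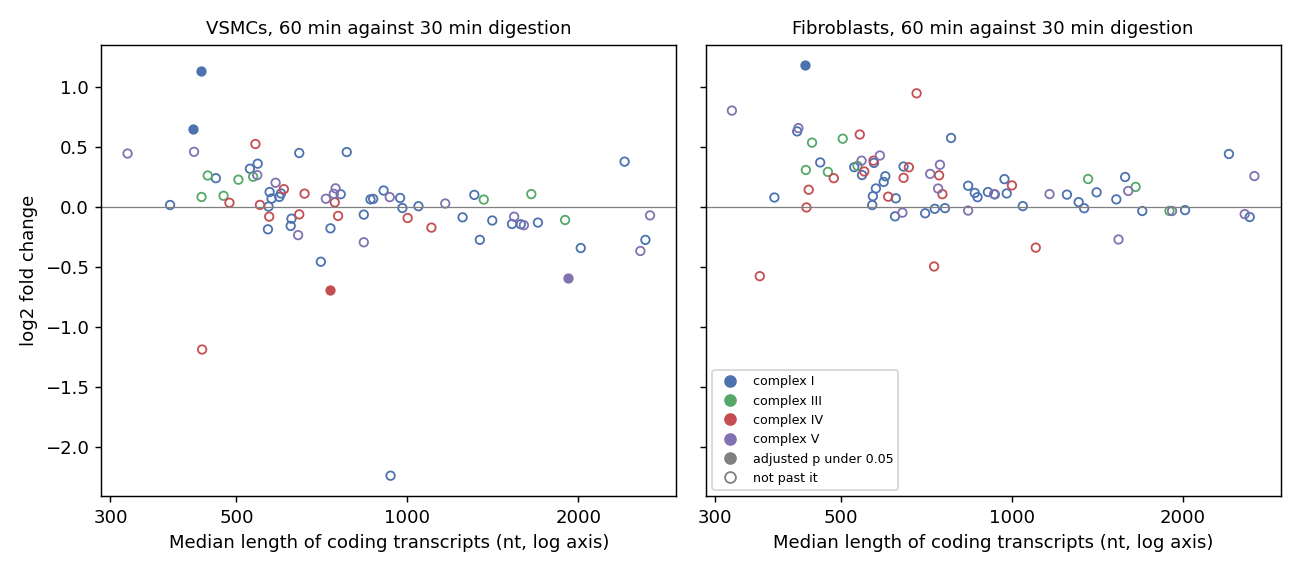
Log2 fold change of each tested member at 60 against 30 min of digestion at 18 weeks (vertical axis) by the median length of its coding transcripts in nt (horizontal log axis), in VSMCs (left) and fibroblasts (right), coloured by complex, with filled points past an adjusted p of 0.05. Under 500 nt, 10 of 11 members lie above 0 on the left and 11 of 13 on the right.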

How the data were processed

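Droplet single-cell RNA sequencing (10x 3′ chemistry) was done on thoracic aortas of 16 mice. The deposited values are UMI counts of genes in barcodes. The authors ran Cell Ranger (version 6 in the submitters' notes, 4.0.0 in the file headers) on mm10 with a GFP sequence added. They were not normalized. Cell Ranger counts only reads placed on 1 gene, so that near-identical copies lose reads. Library totals ran from 12539539 to 52843031 UMIs. Each library was 1 mouse, and p-values measure the spread between mice.

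Cells with 600 to 6000 genes, 2000 to 50000 UMIs and under 25% mitochondrial UMIs were kept. Cells meeting the thresholds of at least 2 classes (2442) or none (1642) were left out, and no doublet caller was run. UMIs were summed per library and class (at least 20 cells) and tested with edgeR 4.0.16 (quasi-likelihood with robust dispersion, TMM, filterByExpr) and Benjamini-Hochberg adjustment over all genes tested, with the library as a block between classes or subsets and batch as a term between genotypes. DESeq2 1.42.0, limma 3.58.1 (voom), R 4.3.3, Python 3.11.15, numpy 2.4.6, pandas 2.3.3 and scipy 1.17.1 were also used. The edgeR fit was tested on simulated counts, for 1 contrast of each fit. Levels are CPM of a class's UMIs in a library. Intervals cover counting error only, and adjusted p under 0.05 counted as a call.

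Members and lists were chosen with earlier results of these data known. Named genes were the paired isoforms, the 3 largest called rises and falls of each contrast between classes, subsets or digestions, the 3 smallest p of each genotype contrast in VSMCs (1 in other classes), and members with 1 library apart from its group. Other genes of the report (Atp5b and Cox8a against fibroblasts, Uqcrc2, the remaining falls against endothelium and leukocytes, and examples from the lists) were named after their values were seen.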

Additional observations from a re-analysis of the deposited data

Results flagged for a closer look

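In 78 groups of 4 to 10 libraries that were screened, 10 held a library whose distance to its nearest neighbour was large for the range of the group. Chance gives about 1 in 20 for continuous values in separate groups. A group with 1 library above 0 is flagged whatever that value, and the groups share libraries. The 10 are therefore no measure of an excess. Smad3SmKO 18-week replicate 2 had a member share of 1.87% in leukocytes, against 1.54% to 1.66% in the other libraries of its group.

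The other 9 were single genes in VSMCs. Smad3SmKO 18-week replicate 1 had Ndufa4l2 at 184 CPM, against 1.83 to 67.6 in the other 6, and Uqcrc1, a core protein of complex III, at 108 CPM, against 138 to 153. Smad3SmKO 18-week replicate 4, with 20 VSMCs, had Cox6b2 at 31.8 CPM, against 1.30 to 7.18. Smad3+/+ 18-week replicate 3 had Cox7b, the common form of subunit VIIb, at 465 CPM, against 302 to 348. The other 5 were at or near the count of single UMIs. Cox6a2 was at 0.142 CPM in Smad3+/+ 18-week replicate 5, where the others had 0, and at 0.945 in Smad3SmKO 18-week replicate 2, where the others had at most 0.237. Cox7b2 was at 0.285 and Cox8b at 0.427 in Smad3+/+ 18-week replicate 5, and Cox8b at 0.114 in Smad3SmKO 18-week replicate 5, with 0 in the others of each group.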

How the results depend on the processing

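Counts of members in this section stand without the share of all genes called under the same alternative, and are not set against it. The higher counts and medians of the contrasts between classes kept their direction under every alternative run. The member share of each class moved by less than 1 SD. The lower members against endothelium were 4 without the filter on low counts, 4 with cells of 2 classes kept, 5 with cells thinned to 2000 UMIs, 5 without cells with Myh6, Myl3 or Tnni3 and 5 to 8 without 1 library (5 without Smad3+/+ 18-week replicate 4). Thinning left 2 lower against fibroblasts and 2 against leukocytes, and a minimum of 50 cells gave 10 against leukocytes. In Notch3/Enpep VSMCs the counts were 13 higher and 2 lower without the filter, where the median of all genes moved from -0.01 to -0.13, and 1 and 0 with at least 50 cells.

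For digestion in fibroblasts the higher count was 12 with DESeq2, 3 with all barcodes, 0 with limma-voom, 8 in Smad3+/+ and 0 in Smad3SmKO libraries alone, and 0 to 5 without 1 library (0 without Smad3+/+ 18-week replicates 2, 3 or 5 or Smad3SmKO 18-week replicate 1, 5 without Smad3SmKO replicate 4). In VSMCs the higher count was 1 thinned, 0 in Ptprz1/Tes cells, 0 in Smad3SmKO alone and 1 to 4 without 1 library (4 without Smad3SmKO 18-week replicate 7). The lower count was 5 with DESeq2, 1 without cells with heart transcripts, 1 with limma-voom, 0 thinned, 0 with stricter thresholds, in Ptprz1/Tes cells, with at least 50 cells and in Smad3SmKO alone, and 0 to 2 without 1 library. Of the 12 libraries, the call of Ndufa1 held without Smad3+/+ replicate 3 or Smad3SmKO replicates 2, 4, 6 or 7, that of Cox4i2 without Smad3SmKO replicates 3, 6 or 7, and that of Atp5b without Smad3+/+ replicate 1 or Smad3SmKO replicates 1 or 7, and each was lost without any of the rest. Adjusted p over the alternatives ran to 0.369 for Ndufa3, 0.468 for Ndufa1, 0.572 for Cox4i2 and 0.454 for Atp5b. The VSMC median was -0.071 thinned and -0.019 to 0.088 without 1 library (below 0 without Smad3SmKO 18-week replicate 1).

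No genotype contrast had a called member, except 1 in VSMCs at 18 weeks without the filter. Its medians were small and changed sign. At 18 weeks they were 0.13 (VSMCs, Ptprz1/Tes alone), 0.035 (VSMCs, 50 cells), 0.018 and 0.049 (endothelium, no batch term and 30 min alone), 0.058 (fibroblasts, 30 min alone), and 0.018 and 0.0047 (leukocytes, thinned and no batch term). The difference between times was 0.081 (VSMCs, Ptprz1/Tes alone), 0.040 and 0.018 (endothelium, thinned and 50 cells) and -0.025 (leukocytes, thinned). Ndufs3 at 18 weeks was 0.015 in Ptprz1/Tes cells. Without 1 library, the 10-week medians ran from -0.12 to 0.32 in VSMCs (below 0 without Smad3+/+ replicate 1), from -0.0041 to 0.090 in fibroblasts (Smad3+/+ replicate 1, Smad3SmKO replicate 2) and from -0.25 to 0.080 in leukocytes (Smad3+/+ replicate 2). At 18 weeks they ran from -0.048 to 0.039 in endothelium (Smad3+/+ replicate 4, Smad3SmKO replicate 6), from -0.081 to 0.069 in fibroblasts (Smad3SmKO replicate 6) and from -0.042 to 0.027 in leukocytes (Smad3+/+ replicate 2, Smad3SmKO replicate 4). The difference ran from -0.42 to 0.026 in VSMCs (Smad3+/+ 10-week replicate 1), -0.10 to 0.093 in endothelium and -0.097 to 0.055 in fibroblasts (Smad3SmKO 18-week replicate 6), and -0.12 to 0.23 in leukocytes (Smad3+/+ 10-week replicate 2). Cox7a1 at 10 weeks ran from -1.09 to 0.20 (Smad3+/+ replicate 2).

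The causes were not tested. Thinning was 1 random draw, and an earlier draw gave other signs for some medians near 0. The alternatives with Ptprz1/Tes cells and without Myh6, Myl3 or Tnni3 were chosen after seeing the data. Alternatives that redraw or relabel cells were not run for the subset contrast. No paired analysis was possible because the labels name mice and give no replicate numbers. Few mice at 10 weeks and few endothelial cells limit the precision.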

Other observations

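Ndufa4l2 and Cox4i2 also differed among fibroblast-class cells, in sets chosen after the levels were seen. The 13847 cells (40.8%) with at least 2 UMIs of the pericyte markers other than Rgs5 had Ndufa4l2 at 158 CPM against 78.5 in the rest and held 63.3% of its UMIs, while Cox4i2 was at 54.3 against 62.6. Within libraries Ndufa4l2 was higher in these cells in 15 of 16 and Cox4i2 in 4 of 16. In VSMCs the 4469 such cells had Ndufa4l2 at 14.8 against 6.53 pooled over libraries, with Ndufa4l2 higher in 10 of 16, and Cox4i2, at 60.1 against 57.5 pooled, was higher in 7 of 16, with medians over libraries the other way (58.3 against 59.8). In the endothelial class, 17 cells with heart muscle transcripts held 32.6% of the Cox6a2 UMIs, at 100 CPM against 3.67 in the rest.

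The members' share of VSMC UMIs was 3.07% ± 0.215 in the 4 libraries of 10 weeks, 2.59% ± 0.227 in the 7 of 18 weeks at 30 min and 2.51% ± 0.249 in the 5 of 18 weeks at 60 min. Weeks, batch and digestion cannot be told apart between the first and the second of these, and weeks and batch between the first and the third. The mitochondrial share was 6.47%, 4.87% and 3.40% in the same groups.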
